A study of Homo sapiens with 3 samples.

Results

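The genes of the MYC family and their dimerisation partners were examined for YTHDC1 peaks on chromatin. The set held 9 genes, listed by their role in the MYC network: MYC, MYCN, MYCL, MAX, MXD1, MXD4, MXI1, MNT and MLX. They were 9 of 20162 protein-coding genes, and 5 of the 6368 peaks lay within one of them or within 5000 bases of it. YTHDC1, a nuclear protein that recognises N6-methyladenosine (m6A) in RNA, was profiled by ChIP-seq in A549, a cell line established from a human lung adenocarcinoma. The only group was YTHDC1 ChIP-seq in cells without knockdown, with 3 replicates, and no input or IgG library was used here. The authors pooled the reads of the replicates before they called broad peaks, so every value belongs to 1 pooled peak set, with no spread between replicates and no test between groups. The depth of each replicate is unknown, and the labels do not state whether separate cultures were used.

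MYC, MYCN and MYCL are basic helix-loop-helix leucine zipper transcription factors that bind DNA as dimers with MAX, most tightly at the E-box CACGTG, and drive genes for growth, ribosome production and metabolism. MXD1, MXD4, MXI1 and MNT compete for MAX and recruit SIN3 and histone deacetylases, and MLX is a MAX-like protein that pairs with some of the same repressors and with the glucose-responsive factors MLXIP and MLXIPL. MYC is an oncogene in many carcinomas, and its short-lived mRNA carries elements in the 3' untranslated region (3' UTR) that control its turnover.

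The sequences under the start peaks of MYCN, MXI1 and MLX are shown first, because their base composition is compared later. For each peak the 30 bases with most CpG dinucleotides are printed from the hg19 reference, plus strand, which is the coding strand of these genes, with each CG in capitals. They lie at chr2:16080886-16080915 (MYCN), chr10:111986932-111986961 (MXI1) and chr17:40719042-40719071 (MLX).
MYCN: acCGccCGgCGcccagggaagCGaCGagCG
MXI1: gggtCGCGCGtgtgCGgggagggtCGCGCG
MLX: tCGgtCGCGgattggCGggCGCGggtcaCG
These windows held 6, 7 and 7 CG pairs in the order printed, and the whole peaks held 44 in 579 bases, 42 in 365 bases and 33 in 255 bases.

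The same peaks were searched for their 30 bases richest in G on the coding strand, printed with G in capitals, at chr2:16080689-16080718 (MYCN), chr10:111986980-111987009 (MXI1) and chr17:40719196-40719225 (MLX).
MYCN: tGtctGGacGcGctGGGtGGatGcGGGGGG
MXI1: GtGGGaGGGatGGtGcGcGGGGGGGaGGGG
MLX: GGGcGcGcacGccGGcGaGGGGaGGGcGGG
The window of MXI1 held 22 G, against 19 in MLX and 17 in MYCN. Its midpoint lay 54 bases downstream of the nearest annotated MXI1 start.

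The E-box CACGTG reads the same on both strands. It occurred in 1 of the 5 peaks of these genes, the MLX start peak, and in 8.76% of all peaks. Because wider peaks hold more words, the share was also taken over the 1689 peaks within 10% of the width of the MLX peak, where it was 5.68%. The match is printed with its flanks and the E-box in capitals, at chr17:40719056-40719085 on the plus strand of hg19, and its midpoint lay 47 bases upstream of the canonical MLX start.
MLX: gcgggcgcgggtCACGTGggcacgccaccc
In the RefSeq promoter sequences (GRCh38.p14, 250 bases before to 50 bases after each start) 8 of the 9 genes were matched, all but MYC. They had 11 promoters, 3 of them for MXI1 and 2 for MAX. The E-box was present in 3 of these 8 genes, MLX, MXD4 and MNT, and in 11.0% of 15318 matched protein-coding genes, which had 21579 promoters (8.36% of the promoters). MXD4 and MNT, which had no peak, are shown beside it in their own orientation, the minus strand, at chr4:2262330-2262359 and chr17:2401236-2401265 of GRCh38.p14.
MXD4: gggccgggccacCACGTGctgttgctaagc
MNT: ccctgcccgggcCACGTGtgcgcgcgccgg
The E-box thus stood both in a promoter with a YTHDC1 peak and in promoters without one.

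GGACT, a common form of the m6A consensus, was searched on both strands. It occurred in 3 of the 5 peaks, those of MYC, MYCN and the second peak of MLX, against 51.3% of all peaks. Among peaks within 10% of the width of each of these 3, the share was 60.5% for MYC, 68.4% for MYCN and 66.7% for the second MLX peak. In MYCN it lay on the coding strand within intron 1, at chr2:16080968-16080996 of hg19, where capitals mark the word.
MYCN: aatatgcccgggGGACTgtttctgcttcc
The single match in the MYC peak lay on the strand opposite to its RNA.

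Of the 9 genes, 4 had a peak inside them or in the 5000 bases to either side: the activators MYC and MYCN, the MAX-binding repressor MXI1 and the MAX-like MLX. The same rule took 28.1% of all protein-coding genes. A peak within 200 bases of an annotated transcript start was present at 3 of 9 genes, MYCN, MXI1 and MLX, against 15.7% of all protein-coding genes. MYC had no start peak, and its peak lay over the 3' UTR instead. It was 1 of 9 with a peak over an annotated 3' UTR, against 1.96% of protein-coding genes, and 1 of 9 with a 3' UTR peak and no start peak, against 1.20%. With 9 genes a single peak moves these counts by 1, and neither count was tested.

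Each peak carries a value written by the authors' peak caller, taken as a −log10 q because of where its range begins. In it a higher value marks a smaller q-value, and 1.30 equals a q-value of 0.05. Across the 5 peaks of these genes the median −log10 q was 1.18, against 1.33 over all 6368 peaks (quartiles 0.984 and 1.92). Of the 5, 4 were wider than the median peak, with a median of 486 bases (255 to 579) against 348 over all peaks (quartiles 265 and 478). The MYC peak alone had a q-value under 0.05, so 1 of 5 peaks passed that level, against 52.1% of all peaks. Counted by gene, 1 of the 4 genes with a nearby peak had one under 0.05, against 58.2% of the 5671 protein-coding genes with a nearby peak. None of the 3 genes with a start peak had one under 0.05 there, against 57.1% of 3163.

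**Figure D1:**
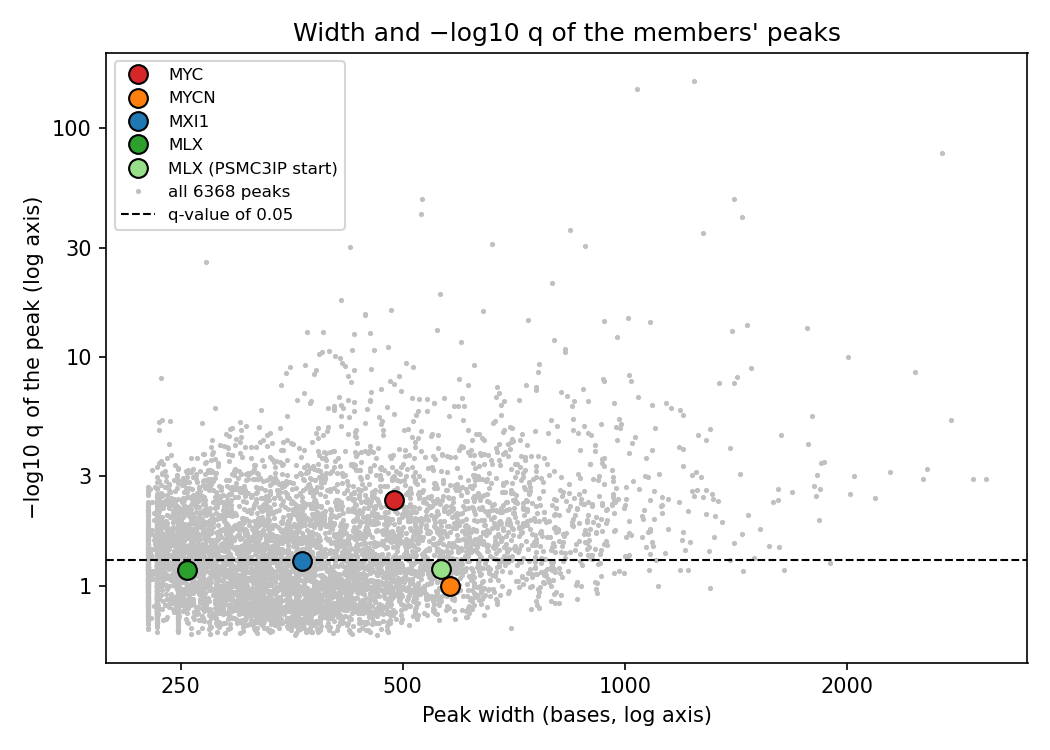
Width in bases (horizontal log axis) and −log10 q (vertical log axis) of the 5 peaks at MYC, MYCN, MXI1 and MLX (coloured points), over all 6368 peaks (grey). The dashed line is a q-value of 0.05: the MYC peak, at 2.38, lies above it, and the others lie between 0.998 and 1.29.

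MYC, on the plus strand of chromosome 8 (128747680 to 128755197), had 1 peak at 128754086 to 128754571. It was 486 bases wide, wider than or as wide as 76.3% of peaks, and its −log10 q was 2.38 (q = 0.00422), rank 974 of 6368. The midpoint lay 5851 bases downstream of the canonical start and 1124 bases after the stop codon. All 486 bases fell in exon 3 of 3 of the canonical transcript, within its annotated 3' UTR of 1996 bases, a length that includes the stop codon. The annotation lists 14 distinct MYC starts, from 128747680 to 128751319, and the last of them was 3009 bases upstream of the peak midpoint.

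The 3' UTR position of the MYC peak rested on 1 of 15 annotated transcripts. MYC-206, the canonical one, runs to 128755197, 626 bases past the peak. The other 14 transcripts end before the peak, 8 of them at 128753680, which is 405 bases upstream of it. Measured by those 8 models the peak stood beyond the end of the gene, in the 1517 bases that MYC-206 alone adds. Only bases shared by at least 2 transcripts were counted in a further comparison chosen after the data were seen. No member then had a 3' UTR peak, whereas 152 of the 395 protein-coding genes with one kept it (0.754% of all). Which MYC transcript end A549 cells use was not analysed here.

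Among the 120 peaks whose midpoint lay in a 3' UTR and that touched no start window, the MYC peak ranked 22 by −log10 q and 40 by width. Their medians were 1.35 and 374.5 bases, so the MYC peak was on the stronger and wider side of its own class without leading it. Its sequence was poorer in GC, at 45.3% against a class median of 56.9%, and 24 of the 120 were at or below it. The ratio of observed to expected CpG was 0.242 in the MYC peak, against 0.406 in the class and 0.690 over all peaks. Counted by any overlap with a 3' UTR, again without a start window, there were 192 peaks. Among those the MYC peak ranked 45 by −log10 q and 81 by width, against medians of 1.42 and 412.5 bases.

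**Figure D2:**
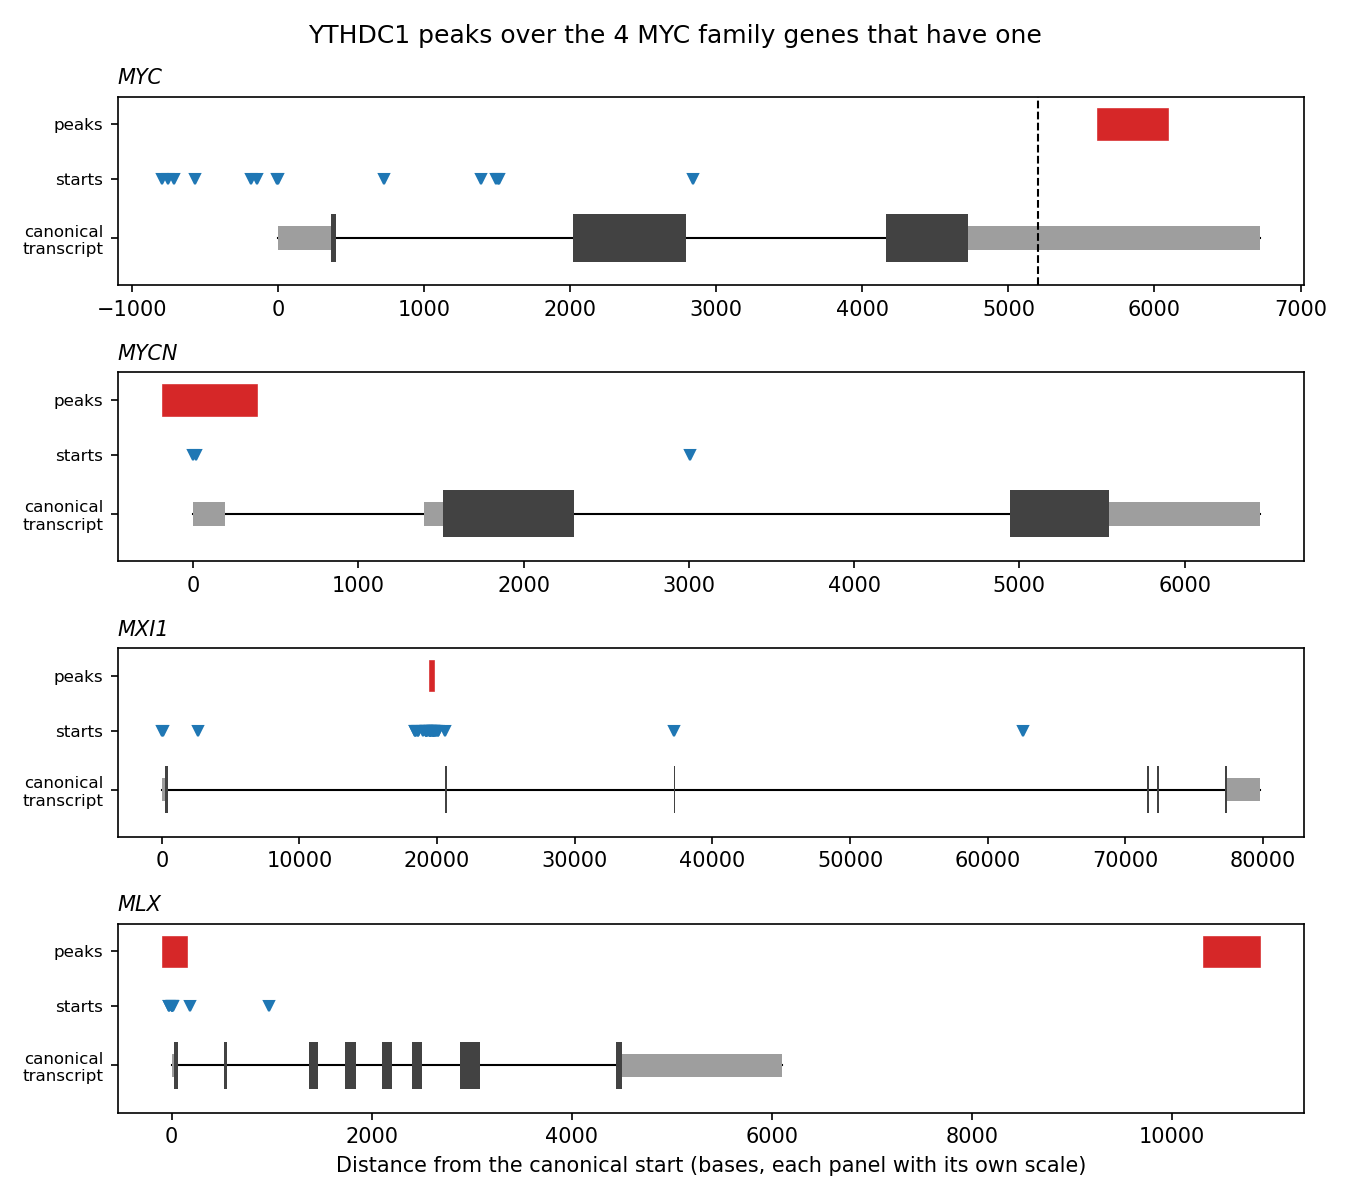
Peaks (red) at MYC, MYCN, MXI1 and MLX, drawn to scale on the canonical transcript (exons grey, coding parts dark, annotated starts as blue triangles) against the distance from the canonical start in bases. The MYC peak lies to the right of the dashed line, the end shared by 8 transcripts, whereas MYCN, MXI1 and MLX each have a peak at annotated starts.

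MYCN, the family member first known from neuroblastoma, had its peak on the canonical start (chromosome 2, 16080483 to 16081061). It was the widest of the 5, at 579 bases, and the weakest, with a −log10 q of 0.998 (q = 0.101), rank 4701 of 6368. Its midpoint was 100 bases downstream of the canonical start, and 2 of 3 annotated starts were inside. The peak covered 189 bases before the start, 194 bases of exon 1 and 196 bases of intron 1. It also overlapped MYCNOS, the antisense lncRNA gene of the locus, whose nearest start was 309 bases beyond the peak. Among the 3394 peaks at starts, 22.8% had a −log10 q at or below that of MYCN.

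MXI1, which pairs with MAX to repress MYC targets, had a peak at an internal cluster of starts and not at its canonical start (chromosome 10, 111986783 to 111987147). The peak was 365 bases wide with a −log10 q of 1.29 (q = 0.0516), just short of the 0.05 level. Its midpoint was 19602 bases downstream of the canonical start but 24 bases from the nearest annotated one. Of 38 MXI1 transcripts, 28 start within 1000 bases of the midpoint and 12 start inside the peak, 8 of them protein-coding. With canonical starts alone MXI1 had no start peak, and 2 of 9 genes, MYCN and MLX, kept theirs, against 11.7% of protein-coding genes.

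MLX, the MAX-like partner of MNT, MXD1, MXD4, MLXIP and MLXIPL, was the only one of the 9 with 2 peaks nearby, against 21.5% of the 5671 genes with a nearby peak that had 2 or more. The peak at its start (chromosome 17, 40719020 to 40719274) was 255 bases wide, the narrowest of the 5, with a −log10 q of 1.17 (q = 0.0669). Its midpoint was 29 bases downstream of the canonical start, and 7 of 9 annotated starts were inside. The second peak (40729433 to 40729996) was 564 bases wide with a −log10 q of 1.18 (q = 0.0663). It began 4176 bases past the end of MLX and was centred on an annotated start of PSMC3IP, a recombination cofactor, with the start of a lncRNA also in reach. The flank of 5000 bases, and not MLX itself, brought it into the count, and with a flank of 1000 bases the genes had 4 peaks.

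The MYC peak was lower in GC than the other 4 peaks. The start peaks of MLX, MXI1 and MYCN were 74.9%, 73.7% and 63.2% GC, against 45.3% in the MYC peak and a median of 61.2% over all peaks. All peaks at starts had a median of 66.2%, so MYCN was below that median and MLX and MXI1 above it. The second MLX peak was at 64.5%. The CpG ratio was 1.40 in MXI1, 0.926 in MLX and 0.763 in MYCN, against a median of 0.795 over start peaks. Only 7 of 6368 peaks, MXI1 included, had a ratio at or above that of MXI1.

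The MXI1 peak also had an uneven share of G and C on the coding strand. The peak held 219 G and 50 C, a skew, (G − C)/(G + C), of 0.63. The median size of the skew, without its sign, was 0.0868 over all peaks, and 27 peaks, MXI1 included, reached the size of MXI1. Its 42 observed CpG compare with 30.0 expected from those base counts, a product that falls as G and C become unequal at the same total. Whether skew and CpG ratio go together over the peaks was not tested. The start peaks of MLX and MYCN had skews of 0.06 and −0.06, and the MYC peak had −0.07.

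**Figure D3:**
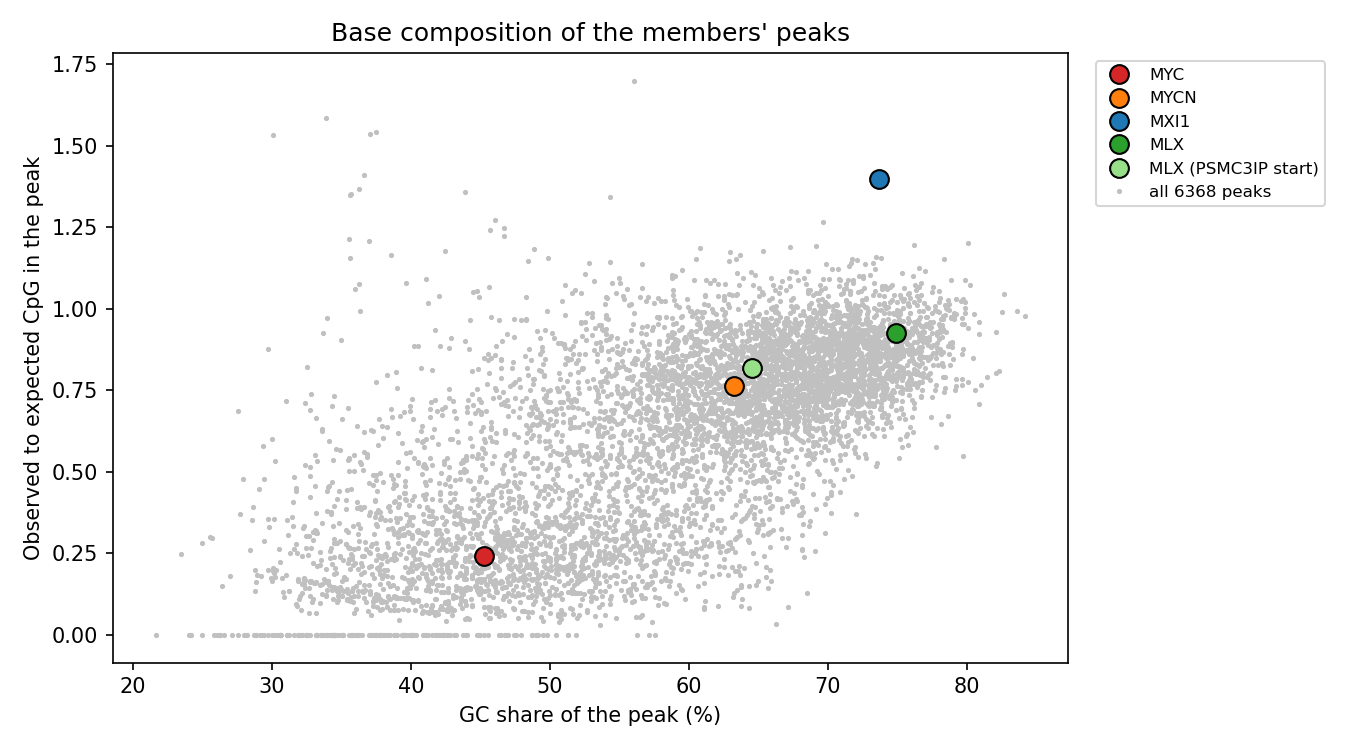
GC content (%, horizontal axis) and ratio of observed to expected CpG (vertical axis) of the 5 peaks at MYC, MYCN, MXI1 and MLX (coloured points), over all 6368 peaks (grey). MYC lies low at 45.3% GC and a ratio of 0.242, and MXI1 lies at the upper edge at 1.40.

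The other 5 genes, MYCL, MAX, MXD1, MXD4 and MNT, had no peak within 5000 bases. MNT, a widely expressed MAX-binding repressor (chromosome 17), was the nearest to one, with 14921 bases between the gene and a peak of −log10 q 3.77 at an annotated start of METTL16, an m6A methyltransferase. MXD1 (chromosome 2) was 68248 bases from a weak peak of 1.10, which overlapped no protein-coding gene and touched no start window. Overlapping no protein-coding gene does not place that peak far from such genes. The protein-coding gene GMCL1 had its nearest peak 220 bases away, and whether this was the same peak was not examined. MXD4 (chromosome 4) was 150912 bases from a peak of 2.14 in ZFYVE28. MAX, the shared partner on which all MYC dimers depend (chromosome 14), was 243585 bases from a peak of 0.796 in SPTB. MYCL, the member first known from small cell lung cancer (chromosome 1), was the farthest at 355434 bases, from a peak of 1.89 at the start of ZMPSTE24. Over the 14491 protein-coding genes with no peak near, the median distance was 138260 bases (quartiles 46201 and 390824), so all of these genes but MNT lay between the quartiles.

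**Figure D4:**
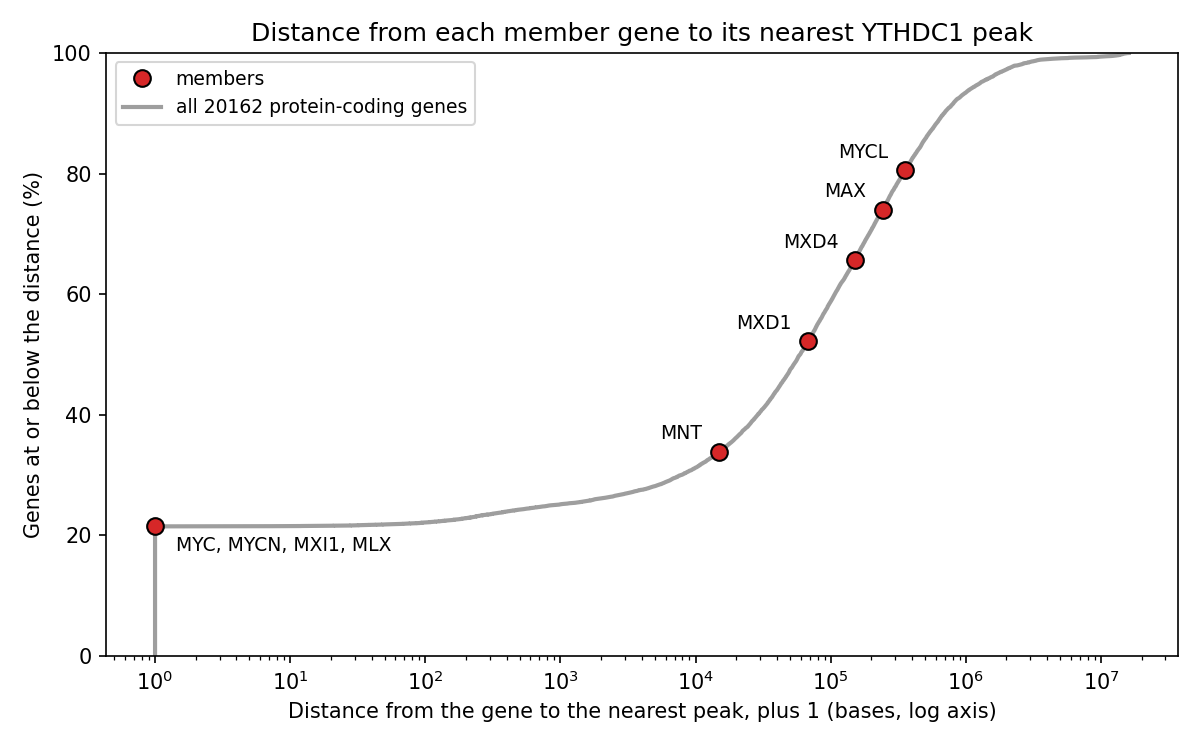
Cumulative share of 20162 protein-coding genes (%, vertical axis) by distance from the gene to the nearest peak, plus 1 base (horizontal log axis), with the 9 genes marked in red. MYC, MYCN, MXI1 and MLX lie at a distance of 0, and the others run from MNT at 14921 bases to MYCL at 355434 bases.

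The promoter GC content of genes with a start peak overlapped that of genes without one. Of the genes with one, the RefSeq promoters of MLX and MYCN were 71.0% and 58.7% GC, and the 3 listed for MXI1 were 75.3%, 69.0% and 55.0%. The MXI1 peak stood at an internal cluster of starts, and which of its 3 promoters it covered was not examined. Of the genes with no peak, MNT, MYCL and MXD4 were at 76.0%, 74.7% and 72.3%, MXD1 was at 65.0%, and the 2 promoters of MAX were at 68.7% and 63.3%. The median over 21579 promoters was 62.3% (quartiles 53.0% and 70.3%). MYC had no matched promoter and is absent from this comparison.

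Over all protein-coding genes, the share with a nearby peak was higher for longer genes and for genes with more annotated starts (39.1% with over 10 starts and 18.3% with 1 or 2). The genes were therefore also set beside others of like length, in 4 classes of equal size. Among the shortest protein-coding genes (up to 9496 bases), 3 of 4 members, MYC, MYCN and MLX but not MYCL, had a nearby peak, against 21.8% of these genes. A 3' UTR peak, which MYC had, was also more frequent in this class, at 3.05% of genes against 1.96% of all protein-coding genes. In the next class MXD4 and MNT had none (0 of 2, against 27.1%), and in the one after it MXD1 had none (0 of 1, against 30.1%). Among the longest, 1 of 2 had one, MXI1 but not MAX, against 33.6%. Of the genes with over 10 annotated starts, MYC, MAX and MXI1, 2 of 3 had a nearby peak, against 39.1% of such genes. A start peak was present at 1 of these 3, against 25.3%. With 3 to 5 starts 1 of 4 members had a nearby peak, against 26.0%, and with 6 to 10 starts 1 of 2 did, against 30.8%.

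The density of peaks around the genes also differed. Within 500000 bases of the canonical start there were 15 peaks at MLX, 14 at MXD1, 10 at MNT, 5 at MYC, 4 each at MAX and MXI1, 3 at MYCN, 2 at MXD4 and 1 at MYCL, against a median of 3 over protein-coding genes (quartiles 1 and 7). MXD1 and MNT thus lay in regions with many peaks and had none near the gene itself.

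The wider MYC network was taken from a list of 28 genes, of which 8 had a nearby peak (28.6%) and 4 a start peak (14.3%), against 28.1% and 15.7% of protein-coding genes. The start count depended on the rule, and was 1 of 28 by peak midpoint, against 10.8%, and 2 of 28 with canonical transcripts, against 11.7%. It was 5 of 28 with a start window of 500 bases, against 18.6%, and 6 of 28 with 1000 bases, against 20.0%. With only peaks of q-value under 0.05 it was 3 of 28, against 8.96%. The 4 with a start peak were ZBTB17, the zinc finger partner MIZ1 through which MYC represses (−log10 q 2.06), WDR5, a chromatin adaptor for MYC (1.64), MGA, a MAX-binding repressor (1.50, at an alternative start), and HDAC1, a histone deacetylase of the SIN3 complex (1.05). Thus 3 of 14 cofactors (21.4%) and 1 of 4 further dimer partners (25%) had a start peak, against 15.7% of protein-coding genes. A nearby peak was present at 7 of 14 cofactors (50%) and 1 of 4 further dimer partners (25%), against 28.1%. Of 10 genes that act on MYC protein stability or bind MYC, FBXW7 and AURKA among them, none had a nearby peak, against 28.1% of protein-coding genes. This count of 0 in a chosen list of 10 was not tested. None of the 28 had a peak over a 3' UTR, against 1.96% of protein-coding genes, so a count of 0 in a list this short is near the background.

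Known MYC target genes, which the family regulates, were read from a list as well. Of 24 such genes, 14 had a nearby peak (58.3%) and 10 a start peak (41.7%), against 28.1% and 15.7% of protein-coding genes. By peak midpoint the start count was 6 of 24, against 10.8%, and with canonical transcripts 8 of 24, against 11.7%. With only peaks of q-value under 0.05 it was 4 of 24, against 8.96%. The list was chosen with earlier results of these data known and was not matched to other genes by length or number of starts. By the −log10 q of the start peak, the highest were EIF4A1, an RNA helicase of translation initiation (3.80), LDHA, lactate dehydrogenase (2.22), RCC1, the exchange factor of Ran (1.72), TFAM, a mitochondrial DNA factor (1.50), CAD, of pyrimidine synthesis (1.25), and NME1, a nucleoside diphosphate kinase (1.18). The RCC1 peak stood at an alternative start, with its midpoint 4082 bases downstream of the canonical one. Of the genes with a start peak, 0 of 3 in the family, 3 of 4 in the network list and 4 of 10 targets had one with a q-value under 0.05, against 57.1% of 3163 over all protein-coding genes. None of the 24 had a 3' UTR peak, also near the background of 1.96% in a list this short. The shares of this list were not tested.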

How the data were processed

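YTHDC1 ChIP-seq was carried out in A549 cells (3 replicates, 1 group). The authors pooled the aligned reads (hg19) and called broad peaks with MACS2 (q-value 0.1, broad cutoff 0.25). Their methods name Bowtie2, whereas the submitters' processing notes name BWA, and the aligner was not settled. The deposited value of each peak is read as −log10 of its q-value, an inference, since its lowest value (0.610) lies just above −log10 of the broad cutoff (0.602). Peak names are numbered up to 6374 and carry a merge label, a step not given in the sources used here. Pooling removes replicate spread, and depth per sample is unknown.

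Genes came from GENCODE release 44 on GRCh37. A gene had a nearby peak if 1 overlapped it or its 5000-base flanks, a start peak if 1 came within 200 bases of any annotated transcript start, and a 3' UTR peak if 1 overlapped an annotated 3' UTR. Coordinates count from 1. Shares over all protein-coding genes serve as background, and no test was run. GC content, CpG ratios and motifs were computed from the reference, and promoters are RefSeq's. The members and lists were chosen with earlier results of these data known. All members were named, with up to 6 genes of each other list ranked by −log10 q among those with a start peak, and every gene whose start met a member's peak. The counting was tested on simulated data. Alternatives covered flank, start window, peak midpoint, canonical transcripts and a q-value limit of 0.05. Python 3.11.15, numpy 2.4.6, pandas 2.3.3 and matplotlib 3.10.9 were used.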

Additional observations from a re-analysis of the deposited data

How the results depend on the processing

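Of 55 values recomputed under 8 alternatives (7 planned, 1 added), 38 stayed within the limits set and 17 moved. With only peaks of q-value under 0.05, 1 member (MYC) had a nearby peak and 0 a start peak, against 16.4% and 8.96% of protein-coding genes. There was then 1 member peak, with a −log10 q of 2.38, and 4 target genes had a start peak. The 3' UTR share over protein-coding genes was 1.19%, and 0.769% without a start peak. By peak midpoint, the 3' UTR share was 1.06%, and 1 of 28 network genes and 6 of 24 target genes had a start peak, against 10.8% of protein-coding genes. With canonical transcripts, 2 network genes did, against 11.7%. With 3' UTR bases shared by 2 transcripts, chosen after seeing the data, 0 members had a 3' UTR peak, with or without a start peak, against 0.754% of protein-coding genes, and 0.486% without a start peak. Flanks of 1000 and 10000 bases and start windows of 500 and 1000 bases gave the same members. Leaving out a replicate was not possible, since the reads were pooled. No paired analysis was possible because there is 1 group.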

Other observations

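The MYC locus held 5 peaks within 500000 bases of the canonical MYC start, none of them at an annotated start. Apart from the peak in MYC, 3 lay in PVT1, the neighbouring lncRNA gene, at 97079, 115912 and 440662 bases downstream of the MYC start, with −log10 q of 0.836, 1.92 and 3.05. The other lay at −67337 bases, upstream of MYC, in the unnamed gene ENSG00000286010, and had the highest −log10 q of the 5, at 3.54. The PVT1 peak at 440662 bases and the upstream one were thus both stronger than the peak in MYC itself (2.38). No input library was used here, and the number of copies of this region in A549 was not analysed.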
